A study of Mus musculus with 26 samples.

Results

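Zp2, Zp3, Bmp15, Mos, Kpna7, Zar1, Pla2g4c, Padi6 and Uchl1 are genes of the zona pellucida and of oocyte growth, and they were followed through the fetal mouse ovary to learn which of them had transcripts before birth and in what share of reporter-positive germ cells. They were chosen by name, with earlier results of these data known. All 9 are among the 16344 complete genes of the deposited table of unique molecular identifier (UMI) counts. The table covers 1881 single cells in 26 libraries of ovaries at embryonic days E11.5, E12.5, E13.5, E14.5, E15.5, E16.5, E17.5 and E18.5. Every cell, whichever its gate, came from mice with the Blimp1-mVenus and Stella-ECFP transgenes (BVSC), and all cell names carry the genotype label WT. The reporters are tied to Prdm1, the gene of Blimp1, and to Dppa3, the gene of Stella, which both mark early germ cells. The BVSC gate gave 1302 cells, in 2 libraries at each stage and in 4 at E14.5, of which 3 (libraries 4, 5 and 12) carry the same deposited replicate label. The BV gate gave 50 cells at E11.5 and E14.5, and the Negative gate gave 529 cells at all 8 stages. The ovaries of several embryos were combined at each stage and dissociated with trypsin, so a library is not 1 animal, and which embryos fed which library is not given in the sources used here. Single cells were picked by mouth pipette after sorting, and a modified STRT-seq protocol counted the 3′ ends of polyadenylated RNA.

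Growing oocytes enclose themselves in the zona pellucida, an extracellular coat of glycoproteins that they secrete themselves, and they store RNA and protein for the early embryo. ZP2 and ZP3 are coat proteins, and Figla, a basic helix-loop-helix factor of oocytes, is known to activate their genes through E-box sequences. BMP15 is a growth factor that the oocyte secretes towards its granulosa cells. MOS is a kinase upstream of the MAP kinases that holds the mature egg in meiotic arrest. KPNA7 is an importin alpha of oocytes and early embryos, ZAR1 an RNA-binding maternal-effect protein, PADI6 a peptidylarginine deiminase family member needed for the cytoplasmic lattices of the oocyte, PLA2G4C a cytosolic phospholipase A2, and UCHL1 a ubiquitin hydrolase abundant in neurons and germ cells.

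The genes lie on chromosomes 4, 5, 7 and X of the GRCm38 (mm10) build: Zp2 at chr7:120126772-120145291 on the minus strand, Zp3 at chr5:135980099-135988624 on the plus strand, Mos at chr4:3870657-3872105 on the minus strand and Padi6 at chr4:140727355-140742643 on the minus strand. Kpna7 lies at chr5:144983519-145084030, Zar1 at chr5:72576806-72581254 and Bmp15 at chrX:6314107-6320721, all on the minus strand. Pla2g4c lies at chr7:13324655-13360672 and Uchl1 at chr5:66676091-66687234, both on the plus strand. By GENCODE annotation, exons of Uchl1 share 295 bases with the antisense gene Uchl1os, which held 560 UMIs, and exons of Kpna7 share 50 bases with Arpc1a on the opposite strand, which held 136657 UMIs. The strand setting of the counting is not given in the sources used here, so reads of these pairs may not be told apart.

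RefSeq promoter windows were matched for 7 of the 9 genes, Zp2 and Mos being the others. The 250 bases before the start of Zp3 (chr5:135979855-135980104, plus strand), Padi6 (chr4:140742644-140742893, minus strand) and Bmp15 (chrX:6320725-6320974, minus strand), in GRCm38.p6, are shown for their E-boxes, since the zona and oocyte genes are known targets of E-box factors. Capitals mark each match to CANNTG, which reads the same on both strands.
Zp3: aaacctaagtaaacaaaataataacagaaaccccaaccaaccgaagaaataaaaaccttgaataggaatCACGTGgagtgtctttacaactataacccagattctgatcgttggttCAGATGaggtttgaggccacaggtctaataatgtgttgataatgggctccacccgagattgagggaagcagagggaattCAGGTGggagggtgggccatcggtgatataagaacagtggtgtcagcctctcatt
Padi6: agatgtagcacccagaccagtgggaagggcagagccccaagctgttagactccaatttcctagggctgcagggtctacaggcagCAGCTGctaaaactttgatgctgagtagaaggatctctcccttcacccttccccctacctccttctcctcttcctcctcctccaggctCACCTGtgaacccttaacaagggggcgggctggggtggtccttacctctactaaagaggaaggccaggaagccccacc
Bmp15: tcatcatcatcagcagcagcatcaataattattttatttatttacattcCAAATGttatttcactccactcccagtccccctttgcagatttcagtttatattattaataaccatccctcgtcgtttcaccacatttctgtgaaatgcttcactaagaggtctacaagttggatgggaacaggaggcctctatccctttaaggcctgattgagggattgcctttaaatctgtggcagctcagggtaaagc
The Zp3 window held 3 matches, at −181, −134 and −55 from the start, Padi6 held 2 and Bmp15 held 1. Such a match was present in 66.2% of 32851 promoter windows of the same length, so its presence is a description of these letters.

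For levels, the UMIs of all cells of a gate in a library were summed into a pool and scaled by the deposited UMI total of those cells, giving CPM, the usual depth-scaled count. Pools of at least 5 cells gave 18 BVSC pools with 26 to 96 cells and 4743602 to 27498626 UMIs, 17 Negative pools with 8 to 48 cells and 700825 to 13141802 UMIs, and 3 BV pools. The 8 germ cell markers summed to 1464 to 2715 CPM in BVSC pools, against 13.6 to 492 CPM in Negative pools, and none of the 8 was at 0 in either gate at any stage. The 8 somatic markers summed to 11.49 to 224 CPM in BVSC pools, against 1398 to 2357 CPM in Negative pools, and their highest BVSC sums were at E16.5 (137 to 224 CPM). In BVSC cells, 25 carried mainly somatic markers, 12 of them at E16.5. In Negative cells, 19 carried mainly germ markers, 6 of them among the 44 at E18.5. All 96 cell barcode names recur across libraries and none recurs within a library. A pool does not separate fewer expressing cells from less RNA per cell, so the shares of cells are given beside the levels.

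Stages were compared with edgeR's quasi-likelihood test on the pools, with Benjamini-Hochberg adjustment over all tested genes and a threshold of 0.05, and 8 of the 9 genes passed its filter on low counts, all but Zar1. Between E18.5 and E14.5, Zp2, Padi6 and Uchl1 rose and Pla2g4c fell, 4 of the 8 tested genes, while Mos, Zp3, Kpna7 and Bmp15 did not pass the test. Across all 10246 tested genes, 18.9% passed in this comparison, 9.67% higher and 9.24% lower at E18.5. The median log2 fold change was 2.03 over the 8 genes and 0.00 over all tested genes. Since the genes were chosen with earlier results of these data known, this describes them and does not test them as a set. Between E18.5 and E16.5 none of the 8 passed, where 1.23% of all genes did, 0.361% higher and 0.869% lower. The plot of levels by stage shows all 9 genes in both gates.

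**Figure D1:**
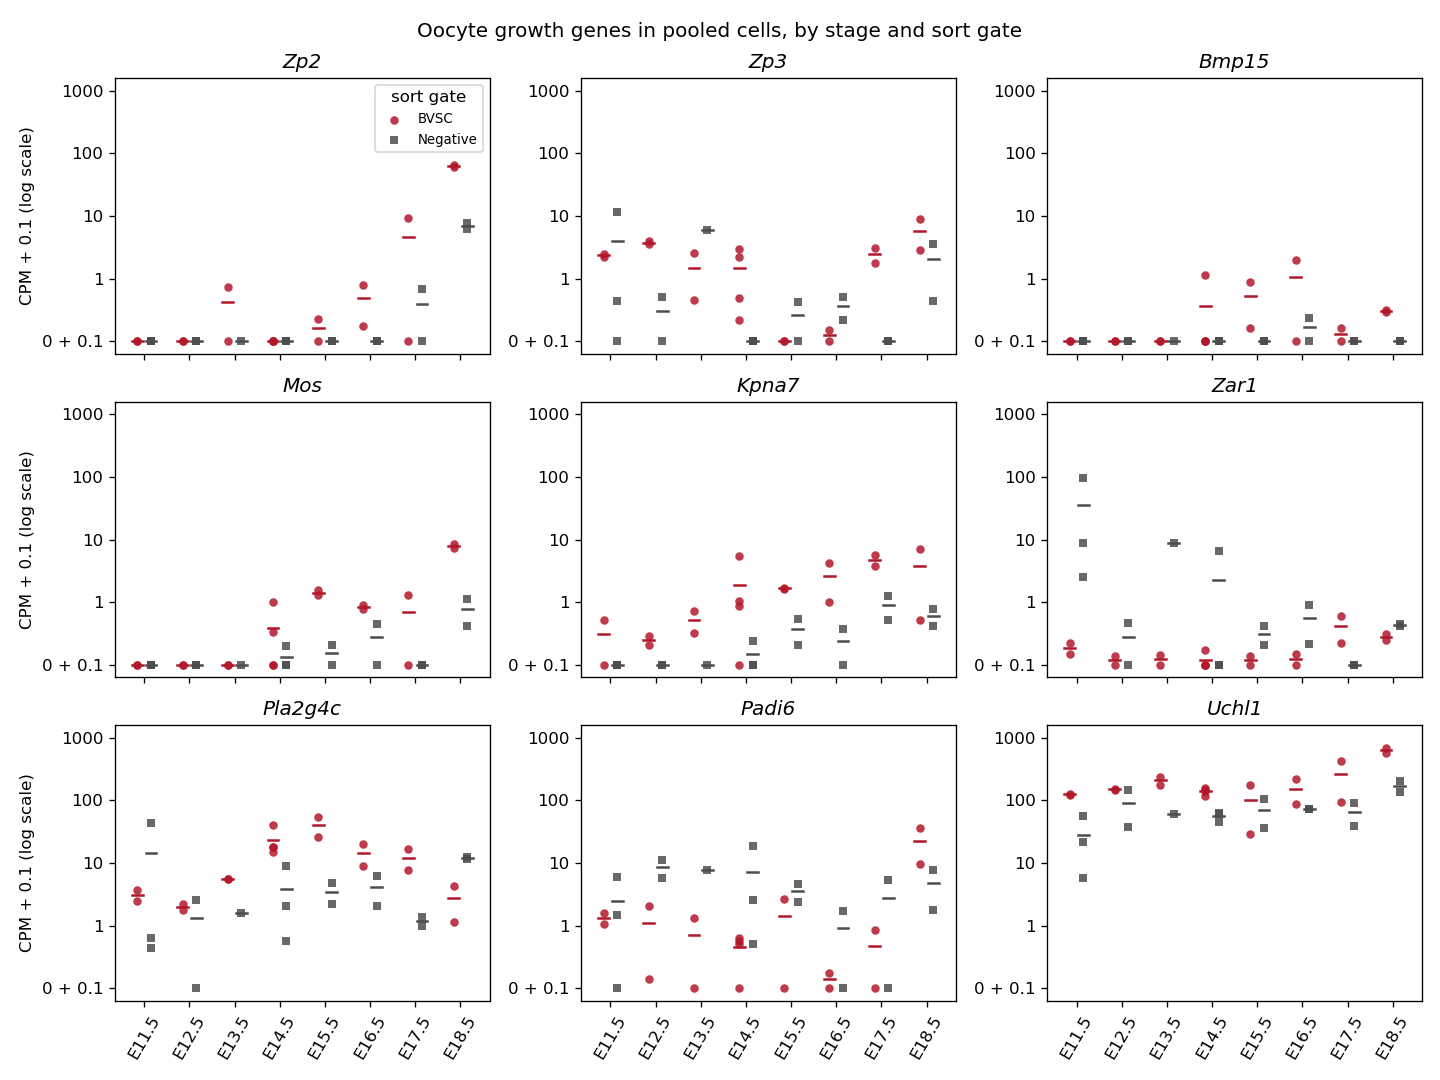
Levels of the 9 genes in pooled cells, in CPM with 0.1 added on a log axis, by embryonic day. Each red circle is 1 BVSC pool and each grey square 1 Negative pool, and short lines are means of the pools. Zp2 stands at 59.9 and 64.7 CPM in the E18.5 BVSC pools and at 0 in all E11.5, E12.5 and E14.5 pools, while Pla2g4c is highest at E15.5.

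Zp2, the gene of the sperm-binding zona protein, appeared late. Its BVSC pools held no UMI at E11.5, E12.5 and E14.5, and 0.631 and 0 CPM at E13.5, 0 and 0.127 CPM at E15.5, 0.701 and 0.0749 CPM at E16.5, 9.06 and 0 CPM at E17.5, and 64.7 and 59.9 CPM at E18.5. The E18.5 pools are thus above every other pool, and the E17.5 pools lie far apart. A single cell held 13 of the 14 UMIs of the E13.5 pool of library 3, and a single cell held 13 of the 14 in the E16.5 pool of library 20. At E18.5, 1607 of 25194050 UMIs were Zp2, against 0 of 77334339 at E14.5, which is at least 1640-fold higher at E18.5 when 3 counts over the group are taken as the floor (adjusted p = 0.000473). Against E11.5 the rise was at least 814-fold (adjusted p = 0.00313, where 27.8% of all genes passed, 15% higher and 12.8% lower). Against E16.5 the log2 fold change was 7.26 ± 2.03 (SE), with an adjusted p of 0.106, which leaving out library 3, 10, 16, 18, 24 or 25 brought to 0.0448, 0.0438, 0.0243, 0.0333, 0.00982 and 0.0077. The adjusted p rose instead without at least 1 other library, and the log2 fold change was 6.56 to 9.56 over all libraries left out.

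Most BVSC cells had a Zp2 transcript at E18.5. It was detected with at least 1 UMI in 87 of 97 BVSC cells at E18.5 (89.7%, exact Clopper-Pearson 95% interval 81.9% to 94.9%), and in 25 of 142 at E17.5 (17.6%, interval 11.7% to 24.9%). Before that it was seen in 2 BVSC cells at E13.5, 2 at E15.5 and 3 at E16.5, and in 0 of 283 at E14.5, which allows a share of cells with a UMI of up to 1.06% (3 counts as the floor). With at least 2 UMIs required, the E18.5 share was 73.2%. Thinning to 50000 UMIs leaves out cells below that depth, and the expected share was then 61.9% over 93 BVSC cells. In Negative cells of E18.5, which by their markers are mostly somatic and should lack a zona gene, 25 of 44 (56.8%, interval 41.0% to 71.7%) had a Zp2 UMI, 11 of 44 had at least 2, and 27.96% had one after the same thinning. Median depths were 238528 UMIs in BVSC cells and 121403 UMIs in Negative cells of that stage. Intervals and floors here cover counting error only.

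Zp3, the partner zona gene, was detected in a small share of BVSC cells from the start and had a gap in mid-prophase. Up to E14.5 the share of BVSC cells with a Zp3 UMI was 3.23% (library 4) to 16.9% (library 8) in a library. Few cells held most of these UMIs: the top 3 cells held 61.96% in library 8 at E12.5 and 90% in library 14 at E14.5. In library 10 at E13.5, 1 cell held 28 of 62. Its BVSC pools held 2.08 and 2.42 CPM at E11.5, 3.47 and 3.84 CPM at E12.5, 0.361 and 2.42 CPM at E13.5, and 0.117, 2.87, 2.07 and 0.385 CPM at E14.5. They held 0 and 0 CPM at E15.5, 0.05 and 0 CPM at E16.5, 2.98 and 1.69 CPM at E17.5, and 8.75 and 2.74 CPM at E18.5. The E15.5 and E16.5 pools are below every pool of the other stages, and the E18.5 pools overlap those of E11.5 to E14.5. At E15.5 no UMI was counted, against 112 UMIs at E14.5, at least 20.6-fold lower at E15.5 (adjusted p = 0.0335, where 6.26% of all genes passed, 3.55% higher and 2.7% lower). This call was lost without library 5, 12, 16 or 18, with adjusted p-values of 0.0739, 0.0596, 0.357 and 0.0785, and with libraries merged by deposited replicate (0.0791).

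At E16.5 against E14.5 the log2 fold change of Zp3 was −5.38 ± 1.79 (SE, adjusted p = 0.0468, where 16.3% of all genes passed, 8.81% higher and 7.51% lower). That call was lost without any of libraries 1, 5, 7, 8, 9, 12, 20, 22 and 24, with adjusted p-values between 0.0504 and 0.269, and with libraries merged by deposited replicate (0.0738). At E18.5 against E14.5 the log2 fold change of Zp3 was 1.92 ± 1.17 (adjusted p = 0.273), and against E16.5 it was 7.30 ± 1.97 (adjusted p = 0.0801), which fell below the threshold without library 16 (0.0392) or 18 (0.0429). Without at least 1 other library the adjusted p against E16.5 rose. The log2 fold change against E16.5 was 6.47 to 9.62 over all libraries left out. Of the 179 Zp3 UMIs of library 6 at E18.5, 124 lay in 1 cell. Zp3 was detected in 30 of 97 BVSC cells at E18.5 (30.9%, interval 21.9% to 41.1%) and 6.19% had at least 2 UMIs, against 8 of 44 Negative cells (18.2%, interval 8.19% to 32.7%) and 6.82% with at least 2. The libraries differed: in library 6 the shares were 29.6% of BVSC cells and 4.55% of Negative cells, and in library 26 they were 34.6% of BVSC cells and 31.8% of Negative cells.

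Mos had no UMI in any BVSC pool up to E13.5. Its later BVSC pools held 0, 0, 0.909 and 0.231 CPM at E14.5, 1.19 and 1.46 CPM at E15.5, 0.801 and 0.674 CPM at E16.5, 1.18 and 0 CPM at E17.5, and 8.51 and 7.17 CPM at E18.5. The E18.5 pools are above all others, and 208 UMIs at E18.5 against 0 at E11.5 is at least 105-fold higher at E18.5 (adjusted p = 0.0185). That call was lost without library 1 (adjusted p = 0.0964) or 7 (0.11), the 2 libraries of E11.5. Against E14.5 the log2 fold change was 4.67 ± 1.66 (adjusted p = 0.0577), and it passed without library 10 (0.0491), 12 (0.0376), 24 (0.0431) or 25 (0.0395), and with no filter on low counts (0.0307). Between E14.5 and E17.5, Mos lay in 4 to 7 BVSC cells a stage, with 29 of the 32 UMIs of library 16 and 16 of the 19 of library 24 in 1 cell each. At E18.5 it was detected in 41 of 97 BVSC cells (42.3%, interval 32.3% to 52.7%), against 4 of 44 Negative cells (9.09%, interval 2.53% to 21.7%), at the depths given above for Zp2. In library 6 the shares were 35 of 71 BVSC cells (49.3%) and 3 of 22 Negative cells, and in library 26, so without library 6, they were 6 of 26 BVSC cells (23.1%) and 1 of 22 Negative cells. The cells of a library are not replicates, and the difference in share was not tested. After thinning to 50000 UMIs the shares were 15.6% of BVSC cells and 2.28% of Negative cells.

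Bmp15 stayed rare at every stage. Its BVSC pools held 0 CPM up to E13.5, 1.04 CPM in library 14 and 0 CPM in the other 3 at E14.5, 0.779 and 0.0633 CPM at E15.5, 1.90 and 0 CPM at E16.5, 0 and 0.0602 CPM at E17.5, and 0.196 and 0.211 CPM at E18.5. In the E14.5 pool of library 14 the 27 UMIs were spread over 22 of 93 cells, while in the E16.5 pool of library 20 1 cell held 32 of 38 UMIs. Bmp15 was seen in 2 of 97 BVSC cells at E18.5 (2.06%, interval 0.251% to 7.25%), against 0 of 44 Negative cells, which allows a share of cells with a UMI of up to 6.82%. The log2 fold change of E18.5 against E14.5 was −0.38 ± 2.48 (adjusted p = 0.939), and without library 14 it was 4.87. The direction therefore rests on that library.

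Kpna7 was at or below 0.624 CPM in each BVSC pool up to E13.5, and held 5.28, 0, 0.764 and 0.924 CPM at E14.5, 1.596 and 1.52 CPM at E15.5, 0.901 and 4.05 CPM at E16.5, 5.65 and 3.67 CPM at E17.5, and 6.99 and 0.422 CPM at E18.5. Pools of 1 stage differed widely, and the log2 fold change of E18.5 against E14.5 was 0.98 ± 1.45 (adjusted p = 0.676), or −1.92 without library 6. In library 25 at E17.5, 53 of 61 UMIs came from 1 cell. The share of BVSC cells with a Kpna7 UMI was 26.8% at E17.5 (38 of 142, interval 19.7% to 34.8%) and 23.7% at E18.5 (23 of 97, interval 15.7% to 33.4%). In Negative cells it was 10.9% at E17.5 (5 of 46) and 6.82% at E18.5 (3 of 44). The share of BVSC cells was 40.9% in library 24 and 12.7% in library 25 at E17.5. At E18.5, 22 of the 23 BVSC cells were of library 6, and 1 of 26 cells of library 26 had a Kpna7 UMI.

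Zar1 was barely detected in BVSC cells. It did not exceed 0.497 CPM in any BVSC pool, a level reached in library 24 at E17.5, and at E18.5 it held 0.147 and 0.211 CPM. It was seen in 3 of 97 BVSC cells at E18.5 (3.09%) and in 2 of 44 Negative cells (4.55%). Negative pools reached higher levels, 97.5, 8.56 and 2.42 CPM at E11.5, 8.6 CPM at E13.5 and 6.54 CPM in library 13 at E14.5. In library 1 at E11.5, all 185 UMIs lay in 1 cell, and in library 13 at E14.5 1 cell held 76 of 86.

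Padi6 was highest at E18.5, with unequal libraries. Its BVSC pools held 0.978 and 1.46 CPM at E11.5, 0.0377 and 1.95 CPM at E12.5, 1.22 and 0 CPM at E13.5, 0, 0.456, 0.4 and 0.539 CPM at E14.5, 0 and 2.6 CPM at E15.5, 0 and 0.0749 CPM at E16.5, 0.745 and 0 CPM at E17.5, and 9.44 and 35.8 CPM at E18.5. Both E18.5 pools are above every earlier BVSC pool. Padi6 averaged 22.6 ± 18.7 CPM at E18.5 (SD, n = 2) and 0.349 ± 0.240 CPM at E14.5 (SD, n = 4), which is 5.98 ± 1.71 on the log2 scale (SE, adjusted p = 0.0179). Without library 26 it was 4.52 and no longer passed (adjusted p = 0.148), nor with libraries merged by deposited replicate (5.74, adjusted p = 0.116). Against E16.5 it was 9.25 ± 2.80 (adjusted p = 0.117), which passed without library 16 (0.0292) or 18 (0.0379). Over all libraries left out it was 7.77 to 11.83 (9.99 without library 6), and the adjusted p also rose without at least 1 library.

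The share of cells with a Padi6 UMI differed between the libraries of E18.5. It was 44.3% of BVSC cells at E18.5 (43 of 97, interval 34.2% to 54.8%), against 45.5% of Negative cells (20 of 44, interval 30.4% to 61.2%). The pooled levels were 9.44 and 35.8 CPM in BVSC cells, against 1.7 and 7.7 CPM in Negative cells. Within library 6 the shares were 32.4% of BVSC cells and 9.09% of Negative cells, and within library 26 they were 76.9% of BVSC cells and 81.8% of Negative cells. Many of these detections were single UMIs. In library 26, 15 of the 18 Negative cells with Padi6 held 1 UMI, against 5 of the 20 BVSC cells. In library 6, 13 of the 23 BVSC cells with Padi6 held 1 UMI. In library 6, 1 BVSC cell held 118 of the 193 UMIs.

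Pla2g4c ran the other way, with its highest levels in mid-gestation. Its BVSC pools held 3.61 and 2.37 CPM at E11.5, 2.11 and 1.68 CPM at E12.5, 5.46 and 5.46 CPM at E13.5, 40.6, 17.98, 14.8 and 17.9 CPM at E14.5, 54.2 and 26.4 CPM at E15.5, 20.4 and 8.84 CPM at E16.5, 7.64 and 16.4 CPM at E17.5, and 4.25 and 1.05 CPM at E18.5. The E14.5 and E15.5 pools are above all pools of E11.5 to E13.5, and both E18.5 pools are below those of E13.5 to E17.5. Pla2g4c rose between E11.5 and E14.5, with a log2 fold change of 2.76 ± 0.69 at E14.5 against E11.5 (SE, adjusted p = 0.00988, where 13.9% of all genes passed, 8.35% higher and 5.58% lower). That call was lost without library 1 (adjusted p = 0.0603) or 7 (0.125).

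Pla2g4c averaged 2.65 ± 2.26 CPM at E18.5 (SD, n = 2) and 22.8 ± 11.9 CPM at E14.5 (SD, n = 4), and fell, at −3.15 ± 0.71 on the log2 scale (SE, adjusted p = 0.0035). Against E16.5 the log2 fold change was −2.45 ± 0.73 (adjusted p = 0.111), and it was −3.59 (without library 6) to −1.75 when 1 library was left out. The adjusted p fell without library 6 and rose without at least 1 other library. The share of BVSC cells with a Pla2g4c UMI was 34.8% at E13.5, 52.7% at E14.5, 75.8% at E15.5 (122 of 161, interval 68.4% to 82.2%), 41.5% at E16.5, 42.3% at E17.5 and 16.49% at E18.5 (16 of 97, interval 9.73% to 25.4%). In Negative cells it was 9.41% at E15.5 (8 of 85) and 11.4% at E18.5 (5 of 44, interval 3.79% to 24.6%). At E15.5 no library held both gates, so gate and library cannot be told apart there.

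Uchl1 was read in nearly all BVSC cells and was higher at E18.5. Its BVSC pools held 129 and 124 CPM at E11.5, 153 and 146 CPM at E12.5, 241 and 180 CPM at E13.5, 116, 140, 155 and 149 CPM at E14.5, 29.4 and 173 CPM at E15.5, 89.1 and 219 CPM at E16.5, 425 and 95.3 CPM at E17.5, and 577 and 680 CPM at E18.5. Both E18.5 pools are above all earlier pools. Uchl1 averaged 629 ± 73.03 CPM at E18.5 (SD, n = 2) and 140 ± 17.01 CPM at E14.5 (SD, n = 4), and rose by 2.14 ± 0.48 on the log2 scale (SE, adjusted p = 0.00341). Against E11.5 it was 2.09 ± 0.60 (adjusted p = 0.0123), a call lost without library 1 (0.0674) or 7 (0.0571). Against E16.5 it was 2.03 ± 0.60 (adjusted p = 0.107), which passed without library 16 (0.00829), 18 (0.012), 24 (0.0205) or 25 (0.0181). Over all libraries left out it was 1.53 to 2.94 (2.3 without library 6), and the adjusted p also rose without at least 1 library. At E15.5, 72.7% of BVSC cells had a Uchl1 UMI, 54.3% in library 16 and 98.5% in library 18, and at E18.5 all 97 had one. Among Negative cells of E18.5, all 22 of library 6 and all 22 of library 26 had one too.

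**Figure D2:**
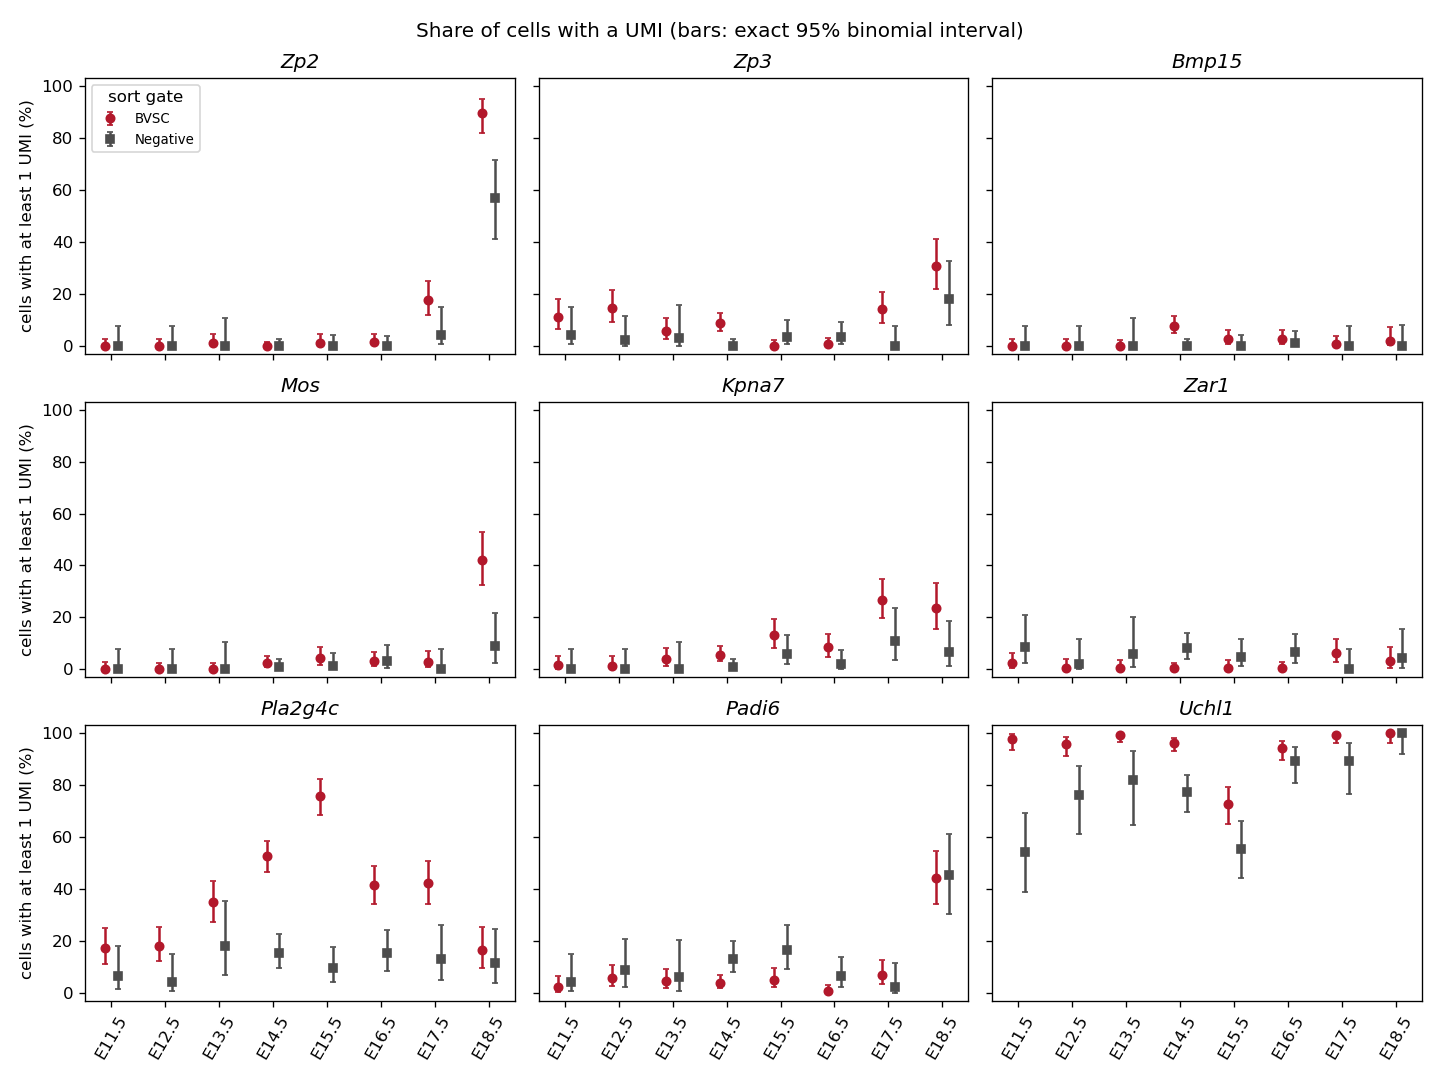
Share of cells with at least 1 UMI of each gene, in percent, by embryonic day, with exact 95% binomial intervals as bars. Red circles are BVSC cells and grey squares Negative cells. Zp2 reaches 89.7% of BVSC and 56.8% of Negative cells at E18.5, Mos 42.3% and 9.09%, and Padi6 44.3% and 45.5%.

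The last stages were also compared pair by pair. At E18.5 against E16.5 none of the 8 tested genes passed edgeR's test, 5 had an unadjusted p under 0.05 (Zp2, Zp3, Padi6, Uchl1 and Pla2g4c), and the DESeq2 Wald test called Zp3 (adjusted p = 0.00501), Padi6 (0.00314) and Pla2g4c (0.016). With no filter on low counts edgeR's test called all 5, with adjusted p-values of 1.89e-06 for Zp2, 0.0224 for Zp3, 0.00038 for Padi6, 1.84e-08 for Uchl1 and 0.0464 for Pla2g4c. Over all genes, 126 passed at E18.5 against E16.5, 15 without library 20 and 446 without library 6. Zp3 at E15.5 against E14.5, given above, was the 1 call in a successive pair of stages. In the other 6 successive pairs none of the 8 passed edgeR's test. Of all genes, 0.0683% passed at E12.5 against E11.5, all higher, and 0.0976% at E13.5 against E12.5 (0.0683% higher, 0.0293% lower). At E14.5 against E13.5, 1.33% passed (1.19% higher, 0.137% lower), at E16.5 against E15.5 0.039%, all lower, at E17.5 against E16.5 0%, and at E18.5 against E17.5 0.00976%, all lower. Of the 8 genes, 0 had an unadjusted p under 0.05 in the first 2 of these pairs, 3 at E14.5 against E13.5, 1 at E16.5 against E15.5, 1 at E17.5 against E16.5 and 4 at E18.5 against E17.5.

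The E17.5 libraries differed from each other in these genes. Of the 71 BVSC cells of library 24, 25 had a Zp2 UMI (35.2%), and of the 71 cells of library 25 none had. Uchl1 held 425 CPM in library 24 and 95.3 CPM in library 25, a ratio of 4.46, and Mos and Padi6 had UMIs in library 24 alone, 19 and 12 of them. Pla2g4c held 7.64 CPM in library 24 and 16.4 CPM in library 25. Oocyte genes of the lists differed in both directions. Nobox, a homeobox factor of early follicles, was at 166 CPM in library 24 and 19.5 CPM in library 25, and Gja4, the connexin of the oocyte surface, at 22.8 CPM and 1.145 CPM. Sohlh2 was level, at 88.4 CPM in library 24 and 89.1 CPM in library 25, and Wee2, a kinase of meiotic arrest, ran the other way, at 0.807 CPM and 3.19 CPM. Dppa3, to which the Stella reporter is tied, held 193 CPM in library 24 and 13.01 CPM in library 25. Of the germ markers, Sycp3 held 228 CPM in library 24 and 207 CPM in library 25, and Stag3 held 130 CPM and 249.4 CPM. Markers of other cells also differed: the 8 somatic markers summed to 100.1 CPM in library 24 and 47.4 CPM in library 25, with Kitl at 53.1 and 8.01 CPM, and the 4 macrophage markers to 9.69 and 0.843 CPM. Of the erythroid markers, Hbb-bs held 75.2 CPM in library 24 and 7.71 CPM in library 25, and Hbb-y held 0 and 27.35 CPM. Their part in the difference was not tested. The plot of the late pools shows that library 24 lies between E16.5 and E18.5 for Zp2, Uchl1, Nlrp5 and Gja4, and that library 25 lies at or below the E16.5 pools for Zp2, Nlrp5 and Gja4.

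**Figure D3:**
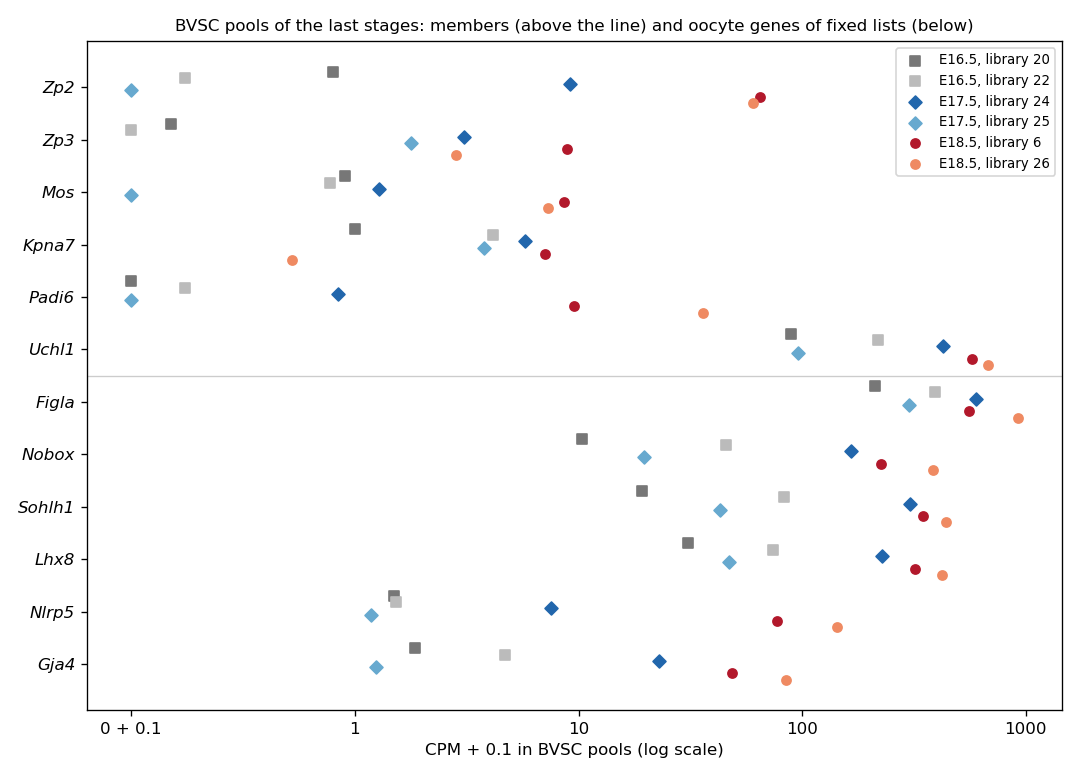
Levels in the 6 BVSC pools of E16.5 (squares), E17.5 (diamonds) and E18.5 (circles), in CPM with 0.1 added on a log axis, 1 symbol per library. Members stand above the grey line and 6 oocyte genes of the fixed lists below it. Zp2 is at 9.06 CPM in library 24 and 0 CPM in library 25 at E17.5, and at 64.7 and 59.9 CPM at E18.5.

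Single BVSC cells of E18.5 differed widely in how many of these genes they carried. Zp2 had a median of 17.4 CPM per cell in library 6 and 16.1 CPM in library 26, with maxima of 348 and 261 CPM. Of the genes Zp2, Zp3, Mos, Padi6 and Kpna7, a cell of E18.5 had none in 5 cells, 1 in 23, 2 in 26, 3 in 28, 4 in 10 and all 5 in 5 of 97 cells, against 80, 39, 15, 5, 2 and 1 of 142 cells at E17.5. Depth moved with this count: the E18.5 cells with none had a median of 75231 UMIs and those with all 5 had 638894 UMIs, and the part of depth in the count was not tested. All 30 cells with a Zp3 UMI also had Zp2. Of the 23 cells with Kpna7, 17 had Mos (73.9%), against 24 of the 74 without Kpna7 (32.4%), at median depths of 370211 and 209129 UMIs. All but 1 of the cells with Kpna7 were of library 6. Mos was in 49.3% of BVSC cells of library 6 and in 23.1% of library 26. The parts of library and depth in this difference were not tested.

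**Figure D4:**
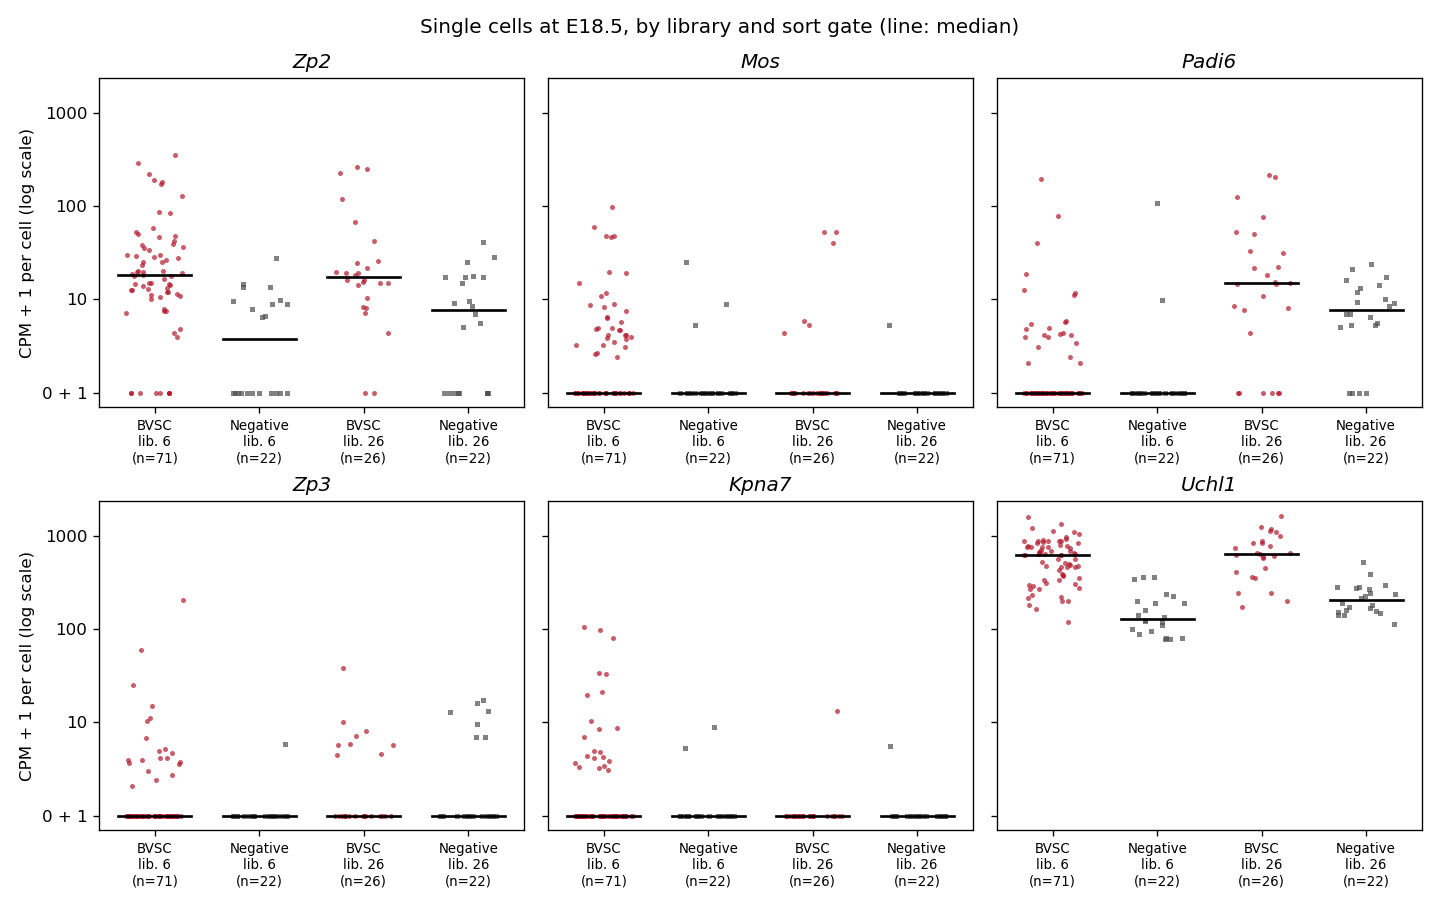
Levels in single cells of E18.5, in CPM with 1 added on a log axis, by library and gate. Each symbol is 1 cell, BVSC in red and Negative in grey, and black lines are medians. Zp2 medians are 17.4 and 16.1 CPM in BVSC cells and 2.71 and 6.63 CPM in Negative cells of libraries 6 and 26, while Zp3, Mos and Kpna7 have a median of 0 in each group.

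Sort gates were compared over pools, with the stage in the fit. Of the 3 genes that passed the filter there, Uchl1 and Pla2g4c were higher and Padi6 lower in BVSC pools, in a comparison where 67.8% of 7261 genes passed, 38% higher and 29.8% lower. Uchl1 ranged over 29.4 to 680 CPM in 18 BVSC pools (median 151 CPM) and over 5.71 to 201 CPM in 17 Negative pools (median 61.5 CPM), and its log2 fold change was 1.51 ± 0.26 (SE, edgeR adjusted p = 5.26e-06). Pla2g4c ranged over 1.05 to 54.2 CPM in BVSC pools (median 8.24 CPM) and 0 to 42.8 CPM in Negative pools (median 1.97 CPM), with a log2 fold change of 1.57 ± 0.68 (edgeR adjusted p = 0.0419). Padi6 ranged over 0 to 35.8 CPM in BVSC pools (median 0.498 CPM) and 0 to 18.3 CPM in Negative pools (median 2.49 CPM), with a log2 fold change of −2.41 ± 0.84 (edgeR adjusted p = 0.0124). In several Negative pools 1 cell held most Padi6 UMIs, as 40 of 41 in library 3 at E13.5 and 25 of 31 in library 8 at E12.5. In the highest Negative pool, library 13 at E14.5, 241 UMIs lay in 15 of 46 cells. The ranges of the gates overlap for all 3 genes.

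The Pla2g4c call was lost with DESeq2 size factors (adjusted p = 0.0646) or upper-quartile scaling (0.0757), without the cells of contrary markers (0.055), and without any 1 of libraries 3, 4, 8, 13, 15, 16, 17, 19, 20, 22, 23, 24 and 25 (0.0503 to 0.104). With the library as a replicate block, over the libraries that hold both gates and so without E15.5 and E16.5, Pla2g4c had a log2 fold change of 1.74 (adjusted p = 0.127) and Padi6 one of −1.95 (adjusted p = 0.157), and neither passed. Zp3, which the filter removed from the fit without the block, passed with it, with a log2 fold change of 2.85 (adjusted p = 0.0444). In the BV gate, the E14.5 pools of libraries 4 and 5 held 148 and 112 CPM of Uchl1, 3.22 and 15.4 CPM of Pla2g4c, and no UMI of Zp2, Mos, Zar1 or Padi6. Kpna7 held 25 UMIs in library 4, all in 1 cell, and in library 5 1 cell held 11 of 12 UMIs of Zp3 and 21 of 23 of Bmp15. No test was planned for the BV pools.

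At E18.5, where both gates were read from the same 2 libraries, Uchl1 was the 1 gene of the 9 that passed, with 577 and 680 CPM in BVSC pools, against 139 and 201 CPM in Negative pools. Its log2 fold change was 1.94 ± 0.68 (SE, edgeR adjusted p = 0.0442), in a comparison where 17.4% of 11291 genes passed, 7.59% higher and 9.84% lower. The call was lost with DESeq2 size factors (0.0512) and without library 3 (0.051), 6 (0.263), 13 (0.0508) or 26 (0.245). Zp2 held 64.7 and 59.9 CPM in BVSC pools, against 6.1 and 7.7 CPM in Negative pools, with a log2 fold change of 3.21 ± 1.95 (adjusted p = 0.278). Mos held 8.51 and 7.17 CPM in BVSC pools, against 1.02 and 0.321 CPM in Negative pools, with 3.59 ± 2.53 (adjusted p = 0.356). The BVSC pools of Zp2 and Mos are above the Negative pools without overlap, and the test did not pass for either gene. With the library as a replicate block, which pairs the gates, Uchl1 had a log2 fold change of 1.95 ± 0.34 (edgeR adjusted p = 3.29e-07). With that block Zp2 (adjusted p = 0.175) and Mos (0.325) did not pass either.

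Zp3 had a log2 fold change of 1.51 between the gates at E18.5 (adjusted p = 0.654), which was −0.21 without library 6. Pla2g4c held 4.25 and 1.05 CPM in BVSC pools of E18.5, against 12.54 and 11.55 CPM in Negative pools, with a log2 fold change of −2.17 ± 1.35 (adjusted p = 0.283). In the Negative pools 36 of its 37 UMIs in library 6 and 34 of its 36 in library 26 lay in 1 cell each. Kpna7 and Padi6 did not pass either (adjusted p = 0.419 and 0.468). Padi6 was higher in BVSC pools here, opposite in sign to the comparison over all stages. Its log2 fold change was 2.32 to 2.45 when 1 library was left out. For the difference of the E18.5 against E11.5 change between BVSC and Negative pools, none of the 9 genes passed edgeR's test, 1 had an unadjusted p under 0.05 (Zar1), and 6.73% of all genes passed, 2.2% higher and 4.53% lower. Zp2, Mos and Bmp15 had no UMI in either gate at E11.5, so this test cannot decide for them.

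The Negative cells of E18.5 also carried other oocyte transcripts. As a percent of the BVSC level, the Negative level of Zp2 was 9.43% in library 6 and 12.9% in library 26, that of Figla 18.7% and 25.8%, of Mael 13.8% and 19.1%, of Dppa3 15.99% and 35.7%, and of Sycp3 4.79% and 4.07%. The percentages thus differ between genes of 1 library, and their part in the shares of Negative cells was not tested. For Zp2, 25 of 71 BVSC cells of library 6 and 6 of 26 of library 26 were above every Negative cell of their library in CPM. The highest Negative cells of Zp2 in CPM held 37346 UMIs in library 6 and 24939 UMIs in library 26. By UMIs, which are not scaled for the lower depth of Negative cells, 40 and 10 BVSC cells were above. For Uchl1, 53 of 71 and 18 of 26 were above in CPM, and 51 and 20 by UMIs.

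The surroundings of these genes were described by lists of related genes, of which only those in the table and past the filter were tested and which were chosen with results of these data known. Of 7 regulators of oocyte transcription, 6 rose and 1 fell at E18.5 against E14.5, with a median log2 fold change of 6.58 (5.32 with Tbpl2 at its bound), where 18.9% of all genes passed and their median was 0.00. Nobox rose by 9.50 ± 1.04 on the log2 scale (SE, edgeR adjusted p = 4.67e-06), Sohlh1, a helix-loop-helix factor, by 7.82 ± 1.19 and Lhx8, a LIM homeobox factor, by 6.58 ± 0.61, while Tbpl2, the oocyte TATA-binding protein, was at 0 at E14.5 and at least 39.9-fold higher at E18.5. Of 5 maternal-effect genes 2 rose, Nlrp5, a component of the subcortical maternal complex, by 9.34 ± 1.04 and Tle6, another component, by 2.58 ± 0.40. Of 11 genes of oocyte growth and maturation 5 rose and 1 fell, with Wee2, a kinase that holds meiotic arrest, at 5.22 ± 1.61, Gpr3, a receptor that keeps cyclic AMP high, at 4.64 ± 1.45, Gja4 at 4.10 ± 0.95, and Cdc25b, a phosphatase of meiotic resumption, at −2.81 ± 0.79. Of the 3 other tested genes of the zona, egg membrane and egg coat none passed.

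The direct partners and paralogs of the 9 genes were also counted at E18.5 against E14.5, where 18.9% of all genes passed. Of 5 receptors and Smads of BMP15 and GDF9 none passed, and of 4 kinases of the MOS to MAP kinase cascade 1 fell, Map2k2, by 0.73 on the log2 scale. Of 4 Padi paralogs 1 fell, Padi1 (log2 fold change −5.73 ± 1.95), of 4 Pla2g4 paralogs 1 fell, Pla2g4a (−4.00 ± 1.22), and of 2 Kpna paralogs and 1 Uchl paralog none passed. Of the markers of other cells, none of 8 somatic and none of 4 macrophage markers passed. Of 4 erythroid markers 1 rose, Hbb-bh1 (11.42 ± 2.07), with 0 CPM in library 6 and 470.5 CPM in library 26 at E18.5. In the E18.5 BVSC pools the 5 erythroid markers summed to 20.3 to 559 CPM and the 4 macrophage markers to 6.85 to 84.5 CPM. Their part in the results was not tested.

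At E18.5 against E16.5, Nlrp5 (6.32 ± 1.22, SE, adjusted p = 0.0111) and Dppa3 (4.17 ± 1.02, adjusted p = 0.0476) rose among 5 maternal-effect genes, Lhx8 (2.82 ± 0.69) among 7 transcription regulators, and Kit (2.27 ± 0.36), the receptor for Kit ligand on the oocyte, among 11 growth genes, where 1.23% of all genes passed and the count over all genes was 15 to 446 when 1 library was left out. Kitl, the ligand made by somatic cells, fell by 3.64 on the log2 scale. The somatic markers of BVSC pools summed to 27.2 to 41.5 CPM at E18.5, against 137 to 224 CPM at E16.5, and their part in the results was not tested.

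The genes most like each member across the 18 BVSC pools were ranked by Pearson's r of log2 CPM, as a description of pools that share their stages and depths. Zp2 was closest to Gm13031 (r = 0.960), Sval1 (0.956) and Gm13391 (0.954). Uchl1 was closest to Gja4 (0.957), D10Wsu102e (0.928) and Map1lc3a (0.922). Pla2g4c was closest to Evi5l (0.928), Hccs (0.927) and Phyhipl (0.918), and Mos to Col24a1 (0.941), Gm15389 (0.901) and Bloc1s6 (0.879). The nearest genes of Bmp15, Kpna7, Zp3 and Padi6 were Pkp1 (0.898), Dnah10 (0.860), Nmnat2 (0.852) and Tox2 (0.819). Among the members, Zp2 was closest to Mos (0.766) and Uchl1 (0.738), and Pla2g4c ran against Zp3 (−0.690) and Uchl1 (−0.685).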

How the data were processed

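Gene expression was read as UMI counts per gene and cell, which the authors deposited as raw counts in 1 table of 1881 cells. Per the submitters' processing notes, CASAVA 1.8, UMI-tools, STAR, featureCounts and Subread were used with the mm10 build; the sources used here do not state their roles, the annotation, the strand setting or any filter on cells. Stage, library and gate came from the deposited cell names and cell table, since the labels of the samples give no stage. The count table read here ends in an incomplete row, which was left out; the 16344 genes before it hold a median of 51.2% of each cell's deposited UMI total, which stays the denominator of CPM, and 2248 of them have no UMI. No cell was removed, cells held 10016 to 948642 UMIs, and doublets were not called, since cells had been picked singly by hand. Positions came from GENCODE annotation of GRCm38, promoters from RefSeq (GRCm38.p6).

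Counts were summed per library and gate for pools of at least 5 cells and tested with edgeR 4.0.16 in R 4.3.3 (TMM, filterByExpr, quasi-likelihood F test, Benjamini-Hochberg over all genes, threshold 0.05), once over BVSC pools by stage, once over both gates with stage as a term, and once with a mean for each stage and gate. The fits by stage and with stage as a term were tested on simulated data. The fit with a mean for each stage and gate was not. The SE given with an edgeR log2 fold change is its absolute value divided by the square root of the F statistic. A log2 fold change against a group with no UMI was replaced by a bound from 3 counts over that group. Shares of cells have exact Clopper-Pearson intervals. Thinned shares are expected values over the cells of at least the depth named. Alternatives were DESeq2 1.42.0 size factors or Wald test, upper-quartile scaling, no filter on low counts, pools of at least 10 cells, libraries merged by the deposited replicate, removal of cells with contrary markers, the library as a replicate block between gates, thinning to 50000 or 100000 UMIs, and each library left out in turn. The main fits did not pair the gates, and only those with the library as a replicate block did. The block was used since per the labels' protocols the barcoded cells of a library were amplified and prepared together. The p-values reflect variation among libraries, and whether these stand for separate animals is not stated. For each member passing the filter, the 3 genes with the highest r over the BVSC pools were named, and of each list up to 4 members with the largest change past the threshold. The 9 genes and all lists were chosen with earlier results of these data known. Python 3.11.15, numpy 2.4.6, pandas 2.3.3, scipy 1.17.1 and matplotlib 3.10.9 were used.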

Additional observations from a re-analysis of the deposited data

Results flagged for a closer look

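In 3 cases Dixon's test flagged 1 of the 4 BVSC pools of E14.5. Its rate of about 1 in 20 groups flagged by chance does not hold where the other 3 pools are at 0, as for Bmp15 and Zar1. Any value above 0 is then flagged, so the test cannot decide there. Bmp15 held 1.04 CPM in library 14 and 0 CPM in the other 3 pools, with 27 UMIs spread over 22 of 93 cells. Zar1 held 0.0727 CPM in library 12 and 0 CPM in the other 3 pools. That value comes from 2 UMIs and lies below the floor of 3 counts, 0.109 CPM in this pool. Pla2g4c held 40.6 CPM in library 4, against 17.98, 14.8 and 17.9 CPM in the other 3 pools, and 90 of its 346 UMIs in library 4 lay in 1 of 31 cells. E14.5 is the 1 stage with enough BVSC pools for this test.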

How the results depend on the processing

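Log2 fold changes of the named genes kept their direction and their side of the threshold in 713 of 792 repeats. Direction changed in 3 of them. When 1 library was left out, Bmp15 at E18.5 against E14.5 was −0.83 to 4.87 (the highest without library 14), Kpna7 was −1.92 (without library 6) to 2.62, and Zp3 between the gates at E18.5 was −0.21 (without library 6) to 4.63. The count of genes past the threshold moved more. At E18.5 against E14.5 (1938 genes) it was 1152 with libraries merged by deposited replicate and 1411 to 2076 when 1 library was left out. At E18.5 against E11.5 (2852) it was 1762 to 2980 when 1 library was left out. At E18.5 against E16.5 (126) it was 574 with the DESeq2 Wald test, 500 with no filter on low counts, and 15 to 446 when 1 library was left out. At E14.5 against E11.5 (1428) it was 2204 with the DESeq2 Wald test, 933 with merged libraries and 526 to 1804 when 1 library was left out. At E15.5 against E14.5 (641) it was 1264 with the DESeq2 Wald test, 1175 with no filter, 122 with merged libraries and 34 to 1194 when 1 library was left out. At E16.5 against E14.5 (1672) it was 793 with merged libraries and 598 to 1971 when 1 library was left out. Between the gates at E18.5 (1968) it was 815 to 2124 when 1 library was left out. For the difference of the stage change between gates (760) it was 1330 with the DESeq2 Wald test and 390 to 785 when 1 library was left out. With the library as a replicate block, 3352 genes passed between BVSC and Negative pools, against 4923 without it, Uchl1 kept its call (adjusted p = 3.31e-05), Pla2g4c and Padi6 lost theirs (adjusted p = 0.127 and 0.157), and Zp3, not tested without the block, passed (0.0444). At E18.5 the block gave 2185 genes and for the difference between gates 758, and it changed no call of a member there. Zp2, Mos and Bmp15 had no UMI at E11.5 in BVSC or Negative pools. The block fit of the difference gave them an F statistic near 0, from which no usable SE follows, so it cannot decide for them. The Zp2 share at E18.5 was 73.2% with at least 2 UMIs and 61.9% after thinning to 50000 UMIs, and its mean level of 62.3 CPM was 121 CPM with the sum of the genes read as the denominator. With 2 BVSC pools a stage, depth and replication limit what can be said of genes below about 1 CPM, where a few cells carry most UMIs. The causes of these shifts were not tested.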
